A study of Arabidopsis thaliana with 9 samples.

Results

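The genes described here are OCT1 (AT1G73220), AT5G20790 and AT2G04460, a set of 3 genes out of the 13350 that a probe set of the array names singly. All 3 belong to the transcripts known to rise in Arabidopsis when phosphate is short, and they were chosen by their measured signals, which were lower in SCL3 OE roots than in the other roots. That choice used the SCL3 OE arrays, so their differences between SCL3 OE and the other groups are given as a description, with no test. Each gene has 1 probe set that names no other gene: 260097_at for OCT1, 246001_at for AT5G20790 and 263851_at for AT2G04460. OCT1 is a member of the organic cation and carnitine transporter family. AT5G20790 is a protein-coding gene with no symbol in RefSeq, and RefSeq lists AT2G04460 as a pseudogene.

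The data are 9 Affymetrix ATH1 arrays of whole-root RNA taken from Arabidopsis thaliana at 7 days after germination, 3 arrays for each of 3 genotypes. SCL3 OE is a line that overexpresses SCL3, a GRAS-family regulator of gibberellin responses and of root ground tissue, and the sources used here name neither the promoter that drives it nor the number of lines. The mutant scl3 carries the loss-of-function allele scl3-1, and Col-0 is the wild type and the background of both lines. All plants were grown on MS medium at 22°C with 16 h of light and 8 h of dark. The labels name no medium without phosphate, so the comparisons are between genotypes on one medium and not between phosphate supplies.

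Plants short of phosphate switch on a common set of genes. The MYB factor PHR1 and its relatives bind a short palindromic promoter element in these genes, and SPX proteins, which bind inositol pyrophosphates when phosphate is plentiful, hold PHR1 back. The set includes phosphate transporters, acid phosphatases that release phosphate from organic compounds, enzymes that replace membrane phospholipids with galactolipids and sulfolipids, and many genes of unknown role. In roots the response goes with shorter primary roots, more root hairs and greater uptake capacity.

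Leaf transcripts set some arrays apart. Of 43 leaf photosynthesis genes listed, 9 had a probe set of their own, and their summed signal was 2596 to 3333 in the 3 SCL3 OE arrays. It was 128142 and 132068 in replicate 3 of scl3 and of Col-0, and 988 to 1334 in replicates 1 and 2 of both. The lowest of the 9 markers had a signal of at least 5592 in the replicate 3 arrays of scl3 and Col-0, and of 17.0 to 45.2 in the other arrays, so none was listed at 0. A set of 7 root genes had a summed signal of 20337 to 22616 in SCL3 OE, 23804 and 24918 in replicate 3 of the other genotypes, and 35171 to 40897 in their replicates 1 and 2, and PYK10 made up most of each sum. The members did not move together, since EXPA7 averaged 1018 in SCL3 OE and 605 in Col-0, and the cortex gene AT1G09750 had 5009 and 5440 in replicate 3 of scl3 and of Col-0 against 125 to 208 in their other replicates. Replicate 3 of scl3 and of Col-0 correlated at 0.818 to 0.833 with the other arrays over plant probe sets, against 0.932 to 0.944 between SCL3 OE and the other scl3 and Col-0 arrays. No probe set is named for SCL3 in the annotation used here, so its own transcript was not used to check the labels. In whole-root RNA, fewer cells that express a gene and less transcript per cell cannot be told apart.

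OCT1 was near the floor of the array in SCL3 OE roots and among the brighter probe sets in scl3 and Col-0 roots. Its signal was 1.42, 1.03 and 1.02 in SCL3 OE replicates 1, 2 and 3. The signals were 1834, 813 and 426 in scl3, and 2297, 944 and 270 in Col-0. All 3 SCL3 OE values lay far below all 6 others, and scl3 and Col-0 overlapped. Ranked among the plant probe sets of its own array, OCT1 stood at percentiles 1.45 to 2.02 in SCL3 OE, 70.6 to 91.9 in scl3 and 61.0 to 93.7 in Col-0.

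The MAS5 signal is a linear brightness, and the size of a difference between a bright and a very dim group depends on how dim signals are treated. Between 1.63% and 3.77% of plant probe sets had a signal under 1.5 in each SCL3 OE array, so 1.02 and 1.42 were not read as graded levels. With an offset of 1 added before the logarithm, the log2 difference between SCL3 OE and Col-0 was -8.61 ± 0.79 (SE, limma). With an offset of 32 it was -4.73 ± 0.75. With every signal under 99.3 raised to that level, which is the brightness a probe set needed on average to be tested, it was -3.06, or 8.36-fold. The last value counts nothing below the filter level and is the smallest of these estimates. Against scl3 the log2 differences were -8.64 ± 0.79, -4.76 ± 0.75 and -3.10 under the same treatments.

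**Figure D1:**
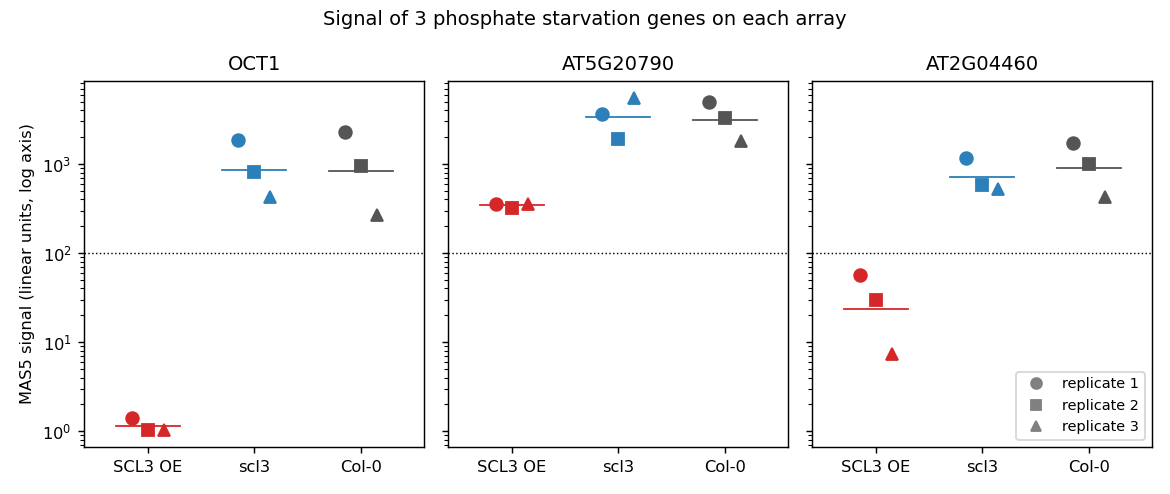
MAS5 signal (log axis) of OCT1, AT5G20790 and AT2G04460 on each of the 9 arrays, by genotype, with a horizontal bar at the geometric mean of signal + 1, less 1, and a dotted line at the filter level of 99.3. All SCL3 OE points lie below all scl3 and Col-0 points, at 1.02 to 1.42 for OCT1, 321 to 355 for AT5G20790 and 7.32 to 56.1 for AT2G04460.

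AT5G20790 was the brightest of the 3 genes and the only one whose SCL3 OE signals stayed above the filter level. Its signal was 355, 321 and 353 in SCL3 OE replicates 1, 2 and 3. It was 3605, 1883 and 5544 in scl3, and 4989, 3288 and 1806 in Col-0. The 3 SCL3 OE arrays were within 1.11-fold of each other, while the scl3 arrays spread over 2.94-fold and the Col-0 arrays over 2.76-fold. The lowest of the 6 other arrays, Col-0 replicate 3, was 5.09-fold above the highest SCL3 OE array.

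Because its signals were bright throughout, the difference of AT5G20790 hardly depended on the offset. The log2 difference between SCL3 OE and Col-0 was -3.17 ± 0.45 (SE, limma), or 9.01-fold, with an offset of 1 and -3.06 ± 0.45 with an offset of 32. Against scl3 it was -3.29 ± 0.45 and -3.18 ± 0.45. In SCL3 OE the probe set stood at percentiles 61.2 to 64.1 of its array, against 92.0 to 97.5 in scl3 and 91.4 to 97.4 in Col-0. AT5G20790 was thus lower in SCL3 OE but not near the floor, unlike OCT1.

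AT2G04460 lay between these cases. Its signal was 56.1, 29.6 and 7.32 in SCL3 OE replicates 1, 2 and 3. It was 1171, 584 and 528 in scl3, and 1702, 1010 and 423 in Col-0. The SCL3 OE arrays did not overlap with the others. All 3 of their values were under the filter level, where the offset weighs and the signals were not read as graded levels. The log2 difference between SCL3 OE and Col-0 was -5.21 ± 0.77 (SE, limma) with an offset of 1, -3.97 ± 0.54 with an offset of 32, and -3.17, or 8.98-fold, with signals raised to the filter level. Against scl3 it was -4.87 ± 0.77, -3.64 ± 0.54 and -2.83.

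**Figure D2:**
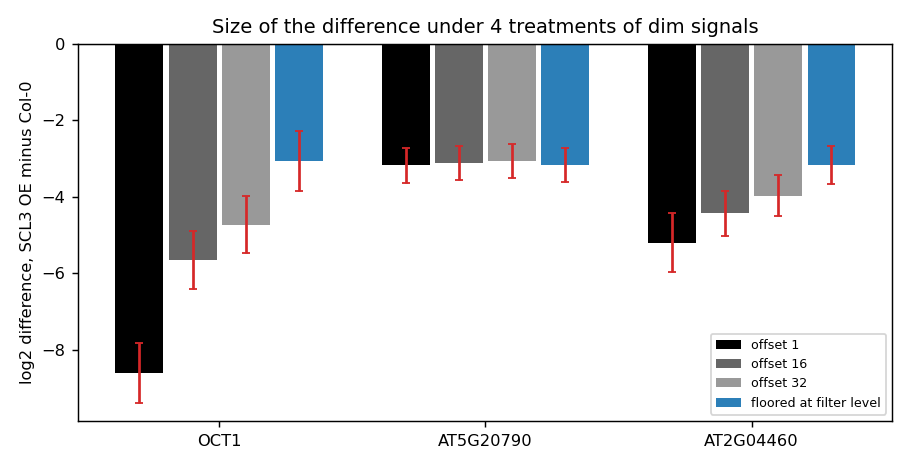
Log2 difference between SCL3 OE and Col-0 (bars, with SE from limma) for the 3 genes under 4 treatments of dim signals: offsets of 1, 16 and 32 added before the logarithm, and signals raised to the filter level of 99.3. The bar for OCT1 shrinks in size from -8.61 to -3.06 and that for AT2G04460 from -5.21 to -3.17, while AT5G20790 stays between -3.17 and -3.06.

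With signals raised to the filter level, the values for OCT1 and AT2G04460 are set by that level in SCL3 OE, so they are lower bounds on the size and cannot be ranked beside the measured difference of AT5G20790. All 3 genes passed the filter on mean signal. OCT1 and AT2G04460 passed it through the scl3 and Col-0 arrays alone, so that a pass for them already required a difference. In the limma fit with group only, 1.2% of the 13647 tested probe sets were called in either direction between SCL3 OE and Col-0, and 1.91% between SCL3 OE and scl3. By direction, 0.762% of the 13647 tested probe sets were called lower in SCL3 OE than in Col-0, and 0.96% lower than in scl3. The median log2 difference of all tested probe sets was 0.13 between SCL3 OE and Col-0 and 0.12 between SCL3 OE and scl3.

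The lower signals in SCL3 OE were present with and without the arrays rich in leaf transcript. All SCL3 OE values of the 3 genes lay below all scl3 and Col-0 values, so leaving out arrays could not remove the fall. Only its size could change. In Col-0 replicate 3 the log2 signal was below the mean of replicates 1 and 2 for all 3 genes, by a difference of -2.44 for OCT1, -1.16 for AT5G20790 and -1.63 for AT2G04460. In scl3 replicate 3 it was -1.52 for OCT1 and -0.65 for AT2G04460, while AT5G20790 was higher at 1.09. Without replicate 3 of scl3 and of Col-0, the log2 difference between SCL3 OE and Col-0 was -9.42 for OCT1, -3.56 for AT5G20790 and -5.75 for AT2G04460. Against scl3 it was -9.15, -2.92 and -5.09. The difference thus grew in size without those arrays, except for AT5G20790 against scl3. The SCL3 OE arrays had a summed leaf signal above that of replicates 1 and 2, and its part in the result was not tested. All SCL3 OE arrays also stood apart from the other arrays together, and a difference in how they were handled cannot be told apart from the genotype.

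**Figure D3:**
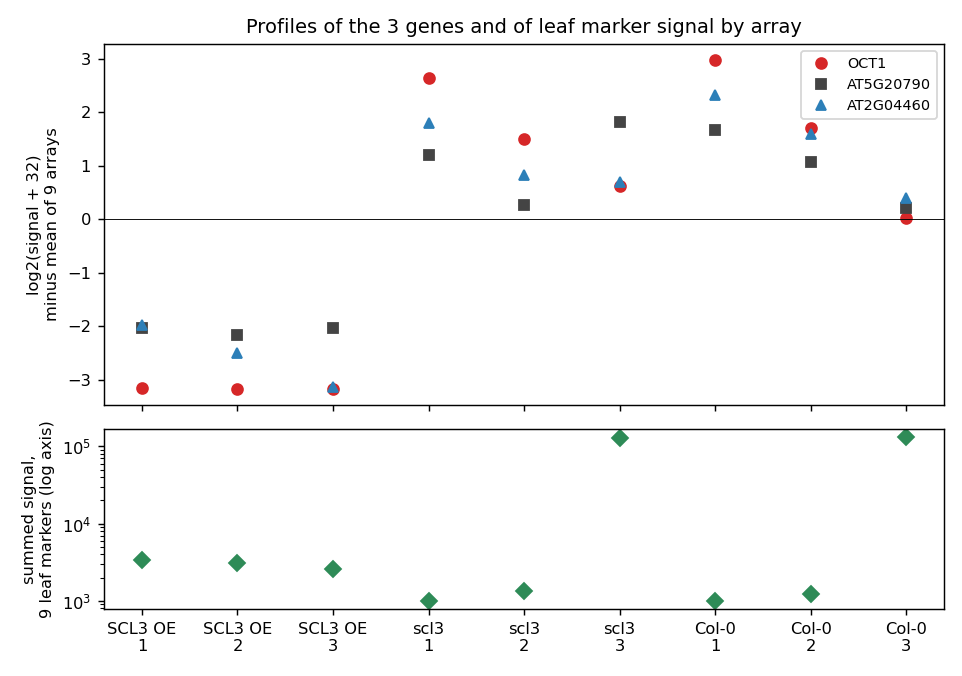
Top, log2(signal + 32) of OCT1, AT5G20790 and AT2G04460 on each array, less each gene's mean over 9 arrays. Bottom, summed signal of 9 leaf photosynthesis genes on the same arrays (log axis), which reached 128142 and 132068 in replicate 3 of scl3 and of Col-0. The SCL3 OE arrays have the lowest values for all 3 genes, and OCT1 and AT2G04460 follow each other more closely than AT5G20790 does.

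Few probe sets went so dim in SCL3 OE while staying bright in the other roots. Of 8197 plant probe sets with a signal of at least 200 in all 6 scl3 and Col-0 arrays, 25 were under the filter level in all 3 SCL3 OE arrays, and 10 of these name 1 gene. OCT1 and AT2G04460 are 2 of the 10. OCT1 was the only 1 of the 25 with a signal under 1.5 in all 3 SCL3 OE arrays. In the other direction, 2 probe sets had at least 200 in all SCL3 OE arrays and lay under the filter level in all 6 others. That count asks for dim signals in 6 arrays rather than 3 and has no base number beside it, so the counts of the 2 directions are not alike. These limits were chosen after the values were seen, and OCT1 and AT2G04460 were chosen for their low signals in SCL3 OE. Their place among the 25 is therefore a description and no support.

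**Figure D4:**
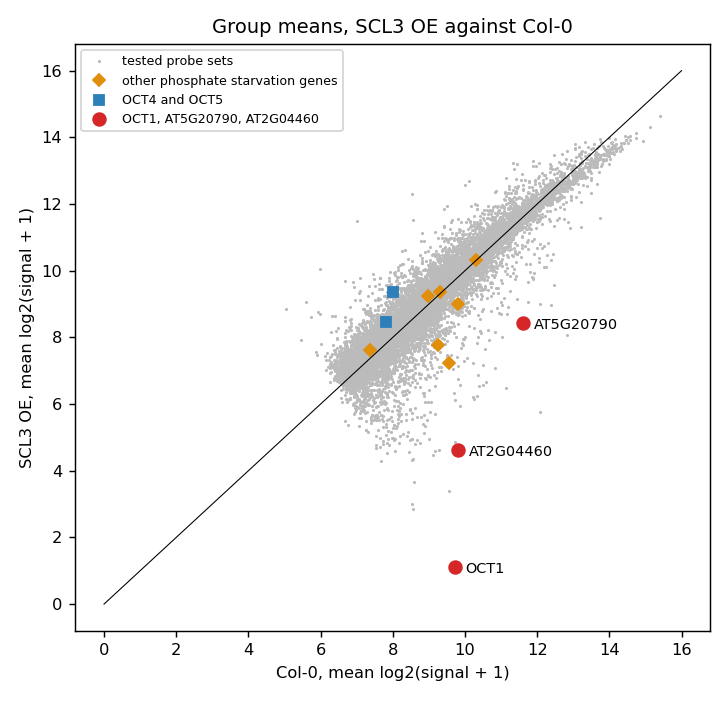
Mean log2(signal + 1) in SCL3 OE (vertical) against Col-0 (horizontal) for the 13647 tested probe sets, with 3 arrays behind each mean and the line of equal signal. The vertical position is 1.11 for OCT1, 4.61 for AT2G04460 and 8.42 for AT5G20790 in SCL3 OE, while the horizontal position in Col-0 is 9.71, 9.81 and 11.60. The other tested phosphate starvation genes, OCT4 and OCT5 are marked as well.

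The difference between scl3 and Col-0 was not what the genes were chosen by, although the choice used the arrays of both as the roots that SCL3 OE was set against. None of the 3 genes passed between scl3 and Col-0. OCT1 had a log2 difference of 0.04 ± 0.79 (SE, 95% interval -1.79 to 1.86), with a limma adjusted p of 1 and an exact 2-sided permutation p of 1. AT5G20790 had 0.11 ± 0.45 (-0.94 to 1.17) and AT2G04460 had -0.34 ± 0.77 (-2.12 to 1.45), each with a limma adjusted p of 1 and an exact permutation p of 0.7. With 3 arrays against 3 the permutation test cannot go below 0.1. The intervals of this fit hold a change of over 2-fold either way for OCT1 and AT2G04460. With the replicate numbers of scl3 and Col-0 taken as pairs, the 95% intervals were -0.41 to 0.48 for OCT1, -0.84 to 1.07 for AT5G20790 and -0.81 to 0.14 for AT2G04460, and none of the 3 passed either (limma adjusted p = 0.978, 0.97 and 0.858). These pairs were taken from the data and not from the labels, so the narrower intervals rest on that choice. Between scl3 and Col-0 with group only, 1 of the 13647 probe sets was called (0.00733%), and 50 had an unadjusted p under 0.05.

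The scl3 and Col-0 arrays of the same replicate number varied together (r = 0.901, 0.885 and 0.945). Replicates 1 and 2 also did so crosswise (0.857 and 0.887), so the values hardly single out 1 with 1 and 2 with 2 as pairs. Within the numbers the 3 genes showed the same order of genotypes. In replicates 1 and 2 each gene was lower in scl3 than in Col-0, by -0.33 and -0.22 on the log2 scale for OCT1, -0.47 and -0.80 for AT5G20790 and -0.54 and -0.79 for AT2G04460. In replicate 3, the arrays rich in leaf transcript, each was higher in scl3, by 0.65, 1.62 and 0.32. Left without replicate 3, the mean differences were -0.27 ± 0.44 for OCT1, -0.64 ± 0.25 for AT5G20790 and -0.66 ± 0.67 for AT2G04460 (SE), with limma adjusted p of 0.962, 0.78 and 0.924. The sign between scl3 and Col-0 was not stable to leaving out single arrays. It turned for OCT1 without Col-0 replicate 3 (-0.78) or scl3 replicate 1 (-0.51), for AT5G20790 without Col-0 replicate 3 (-0.27) or scl3 replicate 3 (-0.25), and for AT2G04460 without Col-0 replicate 1 (0.12).

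Among the 3 genes, OCT1 and AT2G04460 had the most similar profiles. Over the 9 arrays, on the log2(signal + 32) scale, their Pearson correlation was 0.983, against 0.934 between OCT1 and AT5G20790 and 0.945 between AT5G20790 and AT2G04460. The points share the difference between SCL3 OE and the other genotypes for which the genes were picked. Over the 6 scl3 and Col-0 arrays alone, which share the replicate 3 difference, the values were 0.950, 0.428 and 0.540. Of 7361 other tested probe sets of 1 gene, OCT1 ranked 1 for AT2G04460 and AT2G04460 ranked 5 for OCT1, while AT5G20790 ranked 53 for OCT1.

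The other probe sets most like OCT1 over 9 arrays were those of AT5G04120 (r = 0.985), AT5G59480 (0.985), BCAT4 (0.984) and AT5G01870 (0.983). These values share the SCL3 OE difference for which OCT1 was picked. Over the 6 scl3 and Col-0 arrays alone, which share the replicate 3 difference, r was 0.987, 0.940, 0.977 and 0.906 in that order. BCAT4 is an aminotransferase of the methionine-derived glucosinolate pathway. Its signal was 943, 1038 and 637 in SCL3 OE, 6072, 4239 and 2476 in scl3, and 5789, 4151 and 2269 in Col-0. AT5G04120 had 105, 83.2 and 93.4 in SCL3 OE, 557, 379 and 226 in scl3, and 566, 397 and 201 in Col-0. Both followed OCT1 in being lowest in SCL3 OE and, within scl3 and Col-0, highest in replicate 1 and lowest in replicate 3.

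For AT2G04460 the nearest after OCT1 were AT4G27280 (r = 0.979), BCAT4 (0.976), AT4G38410 (0.975) and AT5G59480 (0.972), 2 of them shared with the list for OCT1. Over the 6 scl3 and Col-0 arrays alone, r was 0.794, 0.884, 0.794 and 0.959 in that order. For AT5G20790 the nearest were AT2G25720 (0.979), AT5G35735 (0.975), AT4G38410 (0.971), FHL (0.966) and AT5G17340 (0.963). Over the 6 arrays these fell to 0.881, 0.770, 0.681, 0.609 and 0.860. FHL is a partner of phytochrome A in its import into the nucleus. Its signal was 54.7, 56.6 and 53.6 in SCL3 OE, 238, 181 and 323 in scl3, and 244, 243 and 262 in Col-0. AT4G38410 stood among the 5 nearest of both AT2G04460 and AT5G20790, with 83.4, 78.2 and 78.6 in SCL3 OE, 541, 314 and 417 in scl3, and 564, 425 and 392 in Col-0.

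Few other genes of the phosphate starvation response could be measured, and 1 of them fell in SCL3 OE. Of 74 other genes listed for it, 10 had a probe set of their own and 7 passed the filter on mean signal, none of them among the 17 genes of membrane lipid remodelling. Genes without a probe set of their own in the annotation used here were not analysed. Of the 7, 4 (LPR1, LPR2, SIZ1 and WRKY6) were listed as regulators of the response and not as transcripts that rise when phosphate is short. The counts and medians of the 7 are therefore not a measure of induced transcripts alone. The list was also drawn up with earlier results of these data known, so its counts are a description and no support. Between SCL3 OE and Col-0, 1 of the 7 was called lower and 0 were called higher in limma, beside 0.762% of all tested probe sets called lower and 0.44% called higher. The median of the 7 was 0.01, against 0.13 over all tested probe sets, and 3 of the 7 were negative, beside 36.7% of all. At an unadjusted p under 0.05 the count was 3 of 7, beside 1798 of the 13647 tested probe sets. Against scl3, 1 of the 7 was called lower and 0 higher, beside 0.96% of all called lower and 0.945% higher, with a median of -0.22 against 0.12 over all. Between scl3 and Col-0, 0 of the 7 were called in limma and 0 had an unadjusted p under 0.05, with a median of -0.07 against 0.00 over all.

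AT1G08310, an alpha/beta hydrolase, was the listed gene that fell in SCL3 OE. Its mean signal was 152 ± 23.8 in SCL3 OE, 657 ± 314 in scl3 and 777 ± 207 in Col-0 (SD, n = 3). The 3 SCL3 OE arrays, at 156, 126 and 173, lay below the 363 to 989 of scl3 and the 584 to 996 of Col-0. The log2 difference was -2.33 ± 0.37 against Col-0 (SE, limma adjusted p = 0.0343, and 0.0137 to 0.177 when single arrays were left out) and -2.00 ± 0.37 against scl3 (limma adjusted p = 0.0413). Against Col-0 the call held without scl3 replicate 2 or scl3 replicate 3 and was lost without any single one of the other 7 arrays, with the log2 difference between -2.51 and -2.13. Against scl3 it held without scl3 replicate 2 or Col-0 replicate 3 and was lost without any single one of the other 7 (limma adjusted p 0.0286 to 0.186).

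LPR2, a multicopper oxidase that acts in root growth arrest on low phosphate, had a mean signal of 221 ± 27.1 in SCL3 OE, 540 ± 114 in scl3 and 643 ± 264 in Col-0 (SD, n = 3). Its log2 difference was -1.47 ± 0.30 against Col-0 and -1.28 ± 0.30 against scl3 (SE), and it passed in neither with group only (limma adjusted p = 0.0668 and 0.08). Its relative LPR1 had 0.24 ± 0.58 against Col-0 (limma adjusted p = 0.901). The purple acid phosphatase AT1G13750 had 515 ± 29.5 in SCL3 OE, 953 ± 342 in scl3 and 898 ± 135 in Col-0 (SD, n = 3). Its log2 difference of -0.79 ± 0.25 against Col-0 did not pass (SE, limma adjusted p = 0.214). All 3 SCL3 OE values of LPR2 and of AT1G13750 lay below all scl3 and Col-0 values, as those of AT1G08310 did. How many of all tested probe sets separate in this way was not counted, so no result is drawn from it.

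In limma no remaining listed gene differed past the threshold from Col-0 in SCL3 OE. The vacuolar phosphate transporter AT1G63010 (PHT5;1) had 0.01 ± 0.21, WRKY6, a repressor of the phosphate exporter gene PHO1, had 0.06 ± 0.55, and the SUMO ligase SIZ1 had 0.25 ± 0.14 (log2 difference, SE). Of the untested genes, AT1G69480 of the PHO1 family had mean signals of 54.1 in SCL3 OE, 73.3 in scl3 and 72.6 in Col-0. The DnaJ gene AT1G72070 had 64.4 in SCL3 OE, 151 in scl3 and 108 in Col-0. AT5G09570 had 20.2 to 67.0 in SCL3 OE, and its high values were in replicate 3, at 1691 in scl3 and 775 in Col-0, against 37.8 to 53.2 in replicates 1 and 2 of both genotypes.

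With a term for replicate 3 of scl3 and Col-0 in the fit, 3 of the 7 listed genes were called lower in SCL3 OE than in Col-0 and 0 higher, but 16% of all tested probe sets were called lower too, and 17.6% higher. The 3 were AT1G08310 (-2.05, limma adjusted p = 3.53e-05), LPR2 (-1.23, 9.09e-05) and AT1G13750 (-0.61, 0.00881). Against scl3, 5 of the 7 were called lower, the same 3 with WRKY6 (-0.46, limma adjusted p = 0.0495) and AT1G63010 (-0.38, 0.0142), beside 18.8% of all. WRKY6 (-0.45, limma adjusted p = 0.0605 against Col-0) and LPR1 (-0.30, 0.203) turned negative against Col-0 in that fit without a call, as did AT1G63010 (-0.16, 0.28).

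The other measured organic cation transporters had no low signal in SCL3 OE. Of the other 5 members listed, OCT4 and OCT5 had a probe set of their own, and both had a higher signal in SCL3 OE. OCT5 had 561, 736 and 669 in SCL3 OE, 365, 351 and 415 in scl3, and 324, 245 and 206 in Col-0. OCT5 rose in SCL3 OE with a log2 difference of 1.36 ± 0.21 (SE, limma adjusted p = 0.0299 against Col-0). That call held without Col-0 replicate 3 or scl3 replicate 3 and was lost without any single one of the other 7 arrays (limma adjusted p 0.0263 to 0.182), with log2 differences between 1.21 and 1.53. With the replicate 3 term it was 1.32 (limma adjusted p = 0.000178). OCT5 in scl3 had 0.56 ± 0.21 against Col-0 and did not pass (SE, limma adjusted p = 1). OCT4 had 344 to 367 in SCL3 OE, 210 to 281 in scl3 and 216 to 236 in Col-0, and its log2 difference of 0.65 ± 0.17 against Col-0 did not pass with group only (SE, limma adjusted p = 0.124). OCT4 passed with the replicate 3 term (0.69, limma adjusted p = 0.00224) and without both replicate 3 arrays (0.63, 0.00244). In those fits many probe sets were called higher than in Col-0, 17.6% of all tested with the term and 2697 of 13647 without the arrays. Between SCL3 OE and scl3 with group only, OCT5 had 0.79 ± 0.21 and OCT4 0.54 ± 0.17. Neither passed there (SE, limma adjusted p = 0.113 and 0.167).

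**Figure D5:**
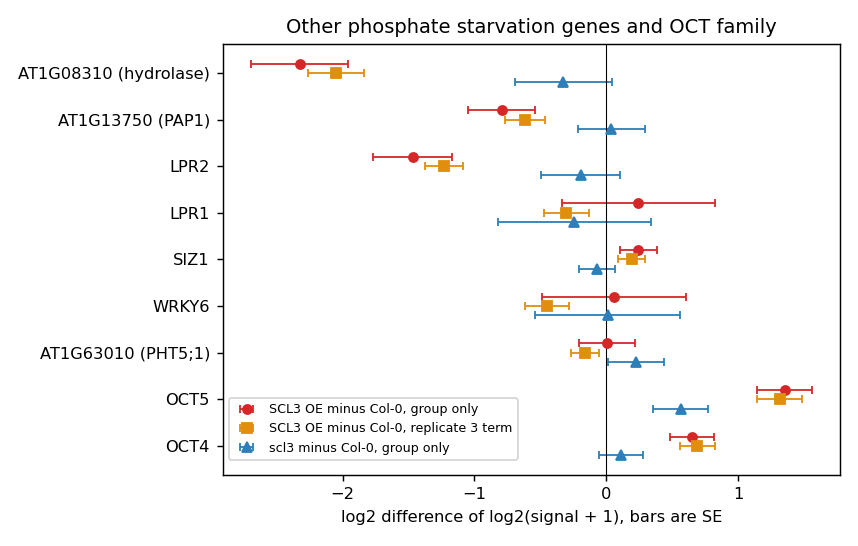
Log2 difference (points, with SE from limma) of the 7 other tested phosphate starvation genes, OCT5 and OCT4 for SCL3 OE against Col-0 with group only, for the same with a term for replicate 3 of scl3 and Col-0, and for scl3 against Col-0. AT1G08310 is at -2.33 and OCT5 at 1.36 in SCL3 OE against Col-0, while the scl3 values lie between -0.32 and 0.56.

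SCL3 OE and Col-0 did not pass as different for any gene beside OCT1 on its chromosome. In the TAIR10.1 gene order the nearest 3 genes on each side with a probe set of their own were taken for each of the 3 genes, a choice made after the values were seen. Not all of them are direct neighbours, and those of OCT1 lay up to 10 places away in the gene order. Next to OCT1, AT1G73230 had a mean signal of 5581 ± 330 in SCL3 OE, 6382 ± 1481 in scl3 and 6457 ± 1105 in Col-0 (SD, n = 3). On the other side the nearest was AT1G73200, 3 places away, and the genes between it and OCT1 were not measured. AT1G73200 had 289 ± 18.4 in SCL3 OE, 262 ± 49.7 in scl3 and 272 ± 81.1 in Col-0. The log2 differences of the 6 genes around OCT1 ran from -0.20 to 0.65 between SCL3 OE and Col-0, with limma adjusted p between 0.46 and 0.984. Only 1.2% of the 13647 tested probe sets were called in this comparison, so the lack of a call among 6 genes is no result about the locus. The 6 genes around AT5G20790 and 5 of the 6 around AT2G04460 were too dim to be tested. The tested one, AT2G04410, had a mean signal of 1569 ± 82.5 in SCL3 OE, 1352 ± 407 in scl3 and 1202 ± 25.5 in Col-0 (SD, n = 3), and did not pass between SCL3 OE and Col-0 (limma adjusted p = 0.488).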

How the data were processed

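RNA of whole roots (300 ng per sample, per the labels) was hybridised to 1 array for each of 9 samples. The values the authors deposited are linear intensities, 1 per probe set. Per the submitters' processing notes they come from the MAS5 method of Expression Console 1.1 (Affymetrix). The deposited intensities had medians of 158 to 191 per array and were not rescaled, and the number of arrays limits the precision. The design text calls the samples biological triplicates without naming cultures, so p-values measure the spread between these samples, which may be technical.

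The log2 values were computed here from the deposited intensities after adding 1, and all differences are on that scale unless another offset is named. Removing 64 control probe sets kept 22746 plant ones, of which those averaging over the 40th percentile of mean log2 signal were tested (13647 probe sets, log2 over 6.65, signal over 99.3). The array annotation gives a single gene for 13513 plant probe sets and several for 503, and 8730 have no name here. RefSeq's TAIR10.1 table matched 13436. Models were fitted in limma (version 3.58.1, R version 4.3.3) to all 9 arrays, one mean per genotype, with trended eBayes and 2-sided tests. Benjamini-Hochberg adjustment ran over all tested probe sets with a threshold of 0.05, and the code was tested on simulated data. Figures used matplotlib 3.10.9.

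The genes and lists were chosen with earlier results of these data known. Named genes were the 3 genes, every listed phosphate and organic cation transporter gene with a probe set of its own, and the 5 most correlated probe sets for each of the 3. Chromosomal neighbours were added after the values were seen. The alternatives were other offsets, filters, quantile normalization, no trend, single arrays left out, the replicate block and both treatments of replicate 3. Same-numbered scl3 and Col-0 arrays deviated together from their group means (r = 0.901, 0.885 and 0.945), so their numbers were taken as pairs, on the data alone. Replicates 1 and 2 also correlated crosswise (0.857 and 0.887). SCL3 OE arrays did not pair with either genotype (r between -0.117 and 0.0898).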

Additional observations from a re-analysis of the deposited data

How the results depend on the processing

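For each of OCT1, AT5G20790 and AT2G04460 the difference was negative under all 19 alternatives in both comparisons of SCL3 OE. The genes were chosen for this fall and no SCL3 OE array overlapped with the others. The sign could therefore hardly turn, and its constancy adds no support. Against Col-0 the log2 difference ranged from -9.42 to -3.06 for OCT1, -3.56 to -2.83 for AT5G20790 and -5.82 to -3.17 for AT2G04460. Dim signals set its size by construction: OCT1 had -5.65 with an offset of 16, -4.73 with 32 and -3.06 with signals raised to the filter level against Col-0, and -5.68, -4.76 and -3.10 against scl3, and AT2G04460 had -3.17 and -2.83 with raised signals (a setting chosen after seeing the data). Between scl3 and Col-0, leaving out replicate 3 of both turned OCT1 to -0.27 and AT5G20790 to -0.64.

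With single arrays left out, the log2 differences against Col-0 ran from -9.42 to -7.88 for OCT1, -3.56 to -2.83 for AT5G20790 and -5.82 to -4.43 for AT2G04460. Against scl3 they ran from -9.15 to -8.10, -3.70 to -2.92 and -5.48 to -4.09, and between scl3 and Col-0 from -0.78 to 0.77, -0.27 to 0.53 and -0.88 to 0.12. Called probe sets ran from 4 (without SCL3 OE replicate 3) to 327 (without scl3 replicate 3) for SCL3 OE against Col-0, with 164 on all arrays. Against scl3 they ran from 8 (without SCL3 OE replicate 3 or scl3 replicate 1) to 658 (without Col-0 replicate 3), with 260 on all arrays, and 1 was called each time between scl3 and Col-0. Of the phosphate genes, 0 to 1 were called against Col-0 and 0 to 2 against scl3.

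Leaving out replicate 3 of scl3 and Col-0, or adding a term for it, gave 5182 and 4590 called probe sets against Col-0 and 5521 and 5319 against scl3, with 3 and 3, and 5 and 5, phosphate genes among them, all lower. The cause was not tested. Without a filter 0 phosphate genes were called against scl3, with more probe sets adjusted over. With the replicate number as a block, 205 probe sets were called against Col-0, 369 against scl3 and 1 between scl3 and Col-0, and 2 phosphate genes against Col-0, AT1G08310 (limma adjusted p = 0.0138) and LPR2 (0.0473), while OCT5 lost its call (1.36, 0.0514). The SCL3 OE arrays did not pair by number with either genotype, so nothing is drawn from the block for SCL3 OE. In the paired fit of scl3 and Col-0 arrays alone, 1 probe set and 0 phosphate genes were called (770 probe sets at an unadjusted p under 0.05), so pairing changed no call there. The filter level is the 40th percentile of mean log2 signal and not a measured limit of detection. The signals of OCT1 and AT2G04460 under it in SCL3 OE were not read as graded levels, which limits the size given for their differences.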
